A study of Mus musculus with 12 samples.

Results

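The comparison described here is the difference of 2 differences in mouse liver: the change from control to Nr5a2 knockout on a high-fat diet (HFD) minus the same change on a standard diet (SD). Every library of the series enters it, 12 of 12, chosen by the group named in its title, and all genes were considered. Of 24062 genes listed, 12015 had enough counts to be tested.

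All animals were male, 14 weeks old, of a mixed 129SvEV-C57BL/6 background and carried floxed alleles of Nr5a2. AAV8-Cre, a viral vector with tropism for hepatocytes, delivered Cre to the knockout groups. Controls carried the floxed alleles without Cre, and the series text names AAV8-eGFP as their vector. The sources used here name neither the promoter that drives Cre nor the exons it removes. Each genotype was fed SD (3 control and 3 knockout libraries) or HFD (4 control and 2 knockout libraries) for 6 weeks. Whether every library is a different mouse is not spelled out in the labels, and the p-values measure spread between libraries, which may in part be technical.

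Nr5a2 encodes LRH-1, an orphan nuclear receptor that binds DNA as a monomer at an extended half-site and can bind phospholipids. In hepatocytes it is known as an activator of bile acid synthesis, of sterol transport and of the gene for SHP (Nr0b2), a corepressor that feeds back on bile acid synthesis. A high-fat diet loads the same tissue with lipid, and the interaction term asks whether the response to losing the receptor has a different size on that diet.

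The libraries of the 2 diets differed in more than diet. Total counts were 2371167 to 3404570 on SD and 7463792 to 10875478 on HFD. Ribosomal RNA reads (Rn45s) made up 0.291% to 0.460% of the SD counts and 0.985% to 1.32% of the HFD counts. The sources used here name no sequencing batch. Diet cannot be told apart from these differences in depth and ribosomal share, and the interaction compares a contrast within one set of libraries with a contrast within the other. HFD control 1 stood apart from the other 3 HFD controls on the second principal component (11.3% of variance), at -3.34 against 11.8 to 18.8, with the HFD knockouts at -24.4 and -20.6. The share of counts on albumin (Alb) was 10.02% and 13.7% in the HFD knockouts and 7.58% to 8.45% in the HFD controls, while on SD the groups overlapped (8.98% to 13.2% in knockouts, 8.82% to 11.1% in controls). Because these are whole tissue samples, fewer cells of a type and less RNA per cell cannot be told apart.

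Nr5a2 itself was not lower in the libraries labelled knockout on either diet. It stood at 84.4, 74.8 and 85.8 CPM (counts scaled to normalized library size) in SD controls and 95.3, 100.1 and 94.7 in SD knockouts. The HFD controls held 77, 74.5, 64.3 and 66.8 CPM and the HFD knockouts 69.1 and 84.5. The knockout values lay above the controls on SD and overlapped them on HFD. Its knockout change differed between diets by -0.12 on the log2 scale (95% interval -0.47 to 0.22). Counts summed over the gene check the deletion only where the counted exons are removed, so the groups below are groups by label.

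No gene passed the test of the difference between diets. With edgeR's quasi-likelihood test the lowest Benjamini-Hochberg adjusted p was 0.202, for Apoa4, and 0 of 12015 genes (0%) passed at 0.05. Unadjusted p-values under 0.05 were held by 911 genes (7.58%), of which 438 (3.65%) had the higher change on HFD and 473 (3.94%) the lower. The standard error of the difference had a median of 0.31 on the log2 scale, against 0.23 for the change on SD and 0.20 for the change on HFD. For 6431 genes (53.5%) the 95% interval of the difference lay inside a 2-fold range, so a larger dependence on diet lay outside the interval for those genes, while for the rest it was not bounded at this depth and number of libraries.

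Within each diet the knockout libraries did differ from their controls. On SD 526 genes passed (4.38%), 173 higher and 353 lower, and on HFD 325 passed (2.70%), 125 higher and 200 lower. Both tests were passed by 163 genes (1.36%), 35 higher and 128 lower, and these were 31.0% of the SD calls and 50.2% of the HFD calls. All 163 moved in the same direction on both diets, where 60.9% of all genes tested did. So did 91.4% of the SD calls and 93.8% of the HFD calls. For 141 of the 163 the 95% interval of the difference included 0, and for 106 it lay inside a 2-fold range. The change was larger on SD for 103 of the 163 and larger on HFD for 60. The standard error was larger on SD (median 0.23 against 0.20 on HFD), so passing there generally took a larger change. The part of this selection in the split was not tested. Passing on one diet and not on the other is no difference between diets: 363 genes passed on SD and not on HFD, and 162 on HFD and not on SD, and 0 of them passed the interaction. Single libraries moved these counts. Leaving out SD control 2 or 3 gave 331 or 229 SD calls, and leaving out SD knockout 2 or 3 gave 255 or 220. HFD calls numbered 602, 191 and 209 when HFD control 1, 2 or 4 was dropped, and 85 and 203 when HFD knockout 1 or 2 was. Calls on both diets became 105 with SD knockout 2 dropped, 278 with HFD control 1 dropped, and 63 or 95 with HFD knockout 1 or 2 dropped.

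**Figure D1:**
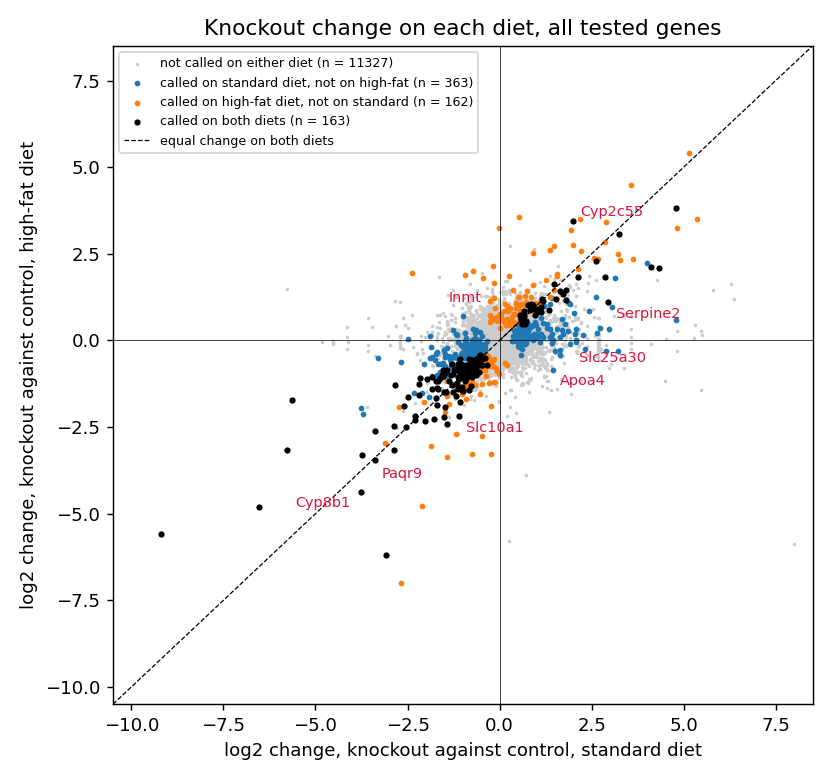
Each point is 1 of 12015 tested genes, with the fitted log2 change from control to knockout on SD (horizontal) and on HFD (vertical), and colour marks the diets on which the gene passed edgeR's test at an adjusted p of 0.05. The 163 genes that passed on both diets (black) lie in the lower left and upper right quadrants. Points beyond about 5 log2 units include genes with a group at 0 counts, whose fitted size depends on the prior count.

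Most of the established LRH-1 targets fell on both diets. Of 12 listed targets, 9 passed lower on SD (2.94% of all genes tested did), 9 on HFD (1.66%) and 7 on both (1.07%), and 0 passed higher. In the interaction 0 of the 12 passed and 3 had an unadjusted p under 0.05, with a median difference of 0.31 (0.12 with groups at 0 set to 3 counts) against -0.01 over all genes tested. The promoters of 2 of these targets, and of the gene with the smallest interaction p, are shown from RefSeq (build GRCm38.p6), each from 250 bases before to 50 bases after the gene's start and read 5′ to 3′ on the gene's strand. Capitals mark CAAGGNCA, the extended half-site to which LRH-1 is known to bind, searched on both strands. Nr0b2 lies at chr4:133553126-133553425 on the plus strand, Cyp8b1 at chr9:121916256-121916555 on the minus strand and Apoa4 at chr9:46240594-46240893 on the plus strand.
Nr0b2: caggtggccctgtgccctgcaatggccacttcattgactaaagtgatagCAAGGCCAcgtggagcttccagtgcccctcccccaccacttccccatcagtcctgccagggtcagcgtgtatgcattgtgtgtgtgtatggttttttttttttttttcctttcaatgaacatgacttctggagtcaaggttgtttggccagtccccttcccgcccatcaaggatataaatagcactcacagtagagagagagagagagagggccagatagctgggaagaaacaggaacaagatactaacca
Cyp8b1: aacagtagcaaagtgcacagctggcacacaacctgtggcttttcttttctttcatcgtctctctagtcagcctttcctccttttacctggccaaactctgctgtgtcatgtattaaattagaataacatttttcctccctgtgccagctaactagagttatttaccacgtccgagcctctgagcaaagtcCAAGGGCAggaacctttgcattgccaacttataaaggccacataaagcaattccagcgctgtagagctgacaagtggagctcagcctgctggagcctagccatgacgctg
Apoa4: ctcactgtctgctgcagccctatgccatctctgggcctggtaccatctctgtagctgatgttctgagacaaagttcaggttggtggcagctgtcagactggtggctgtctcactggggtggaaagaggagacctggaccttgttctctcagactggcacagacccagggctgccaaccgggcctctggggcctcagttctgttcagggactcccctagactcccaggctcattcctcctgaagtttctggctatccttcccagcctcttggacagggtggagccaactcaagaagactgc
The first base of the match lay 201 bases before the start in Nr0b2 and 60 bases before it in Cyp8b1. Apoa4 held no match in this window. The 2 targets are shown because they hold the motif: of the 7 targets that passed lower on both diets, 5 had a promoter in the table, and Abcg5, Abcg8 and Abcc2 held no match. Of 32851 promoter windows in the table, 2204 (6.71%) held the motif. A share over the genes that passed on both diets is not given, because 98 of the 128 lower genes (76.6%) and 24 of the 35 higher genes (68.6%) had a promoter in the table.

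Nr0b2 (SHP) was nearly absent from the knockout libraries of both diets. It stood at 10.5, 15.3 and 12.8 CPM in SD controls and had no count in any of the 3 SD knockouts, at least 35.9-fold lower against 3 counts over the group. On HFD it stood at 6.26, 13.3, 12.4 and 7.54 CPM in controls, and the knockouts held 3 counts in all, 0 in the first library and 3 in the second, a ratio of 51.9 (exact 95% interval 17.6 to 253, counting error only). No size of the diet difference is given for it, since the SD knockouts are at 0.

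Cyp8b1, the 12-hydroxylase needed to make cholic acid, fell steeply on both diets. It stood at 47.6, 20.1 and 17.1 CPM in SD controls and 4.0, 1.20 and 0.697 in SD knockouts. In the HFD libraries the level was 62.4, 87.5, 102 and 95.4 CPM in controls and 6.81 and 1.79 in knockouts. The control level was higher on HFD in each library and the groups did not overlap on either diet. Its log2 change was -3.77 (SE 0.61) on SD and -4.39 (SE 0.48) on HFD. The difference of -0.62 had an interval of -2.60 to 1.37 and changed sign without SD knockout 1 (0.50) and without HFD knockout 2 (0.10), so it was not resolved in either direction.

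Several genes fell on both diets with a difference whose interval lay inside a 2-fold range. Paqr9, a member of the progestin and adipoQ receptor family, stood at 343, 359 and 227 CPM in SD controls and 28.7, 30.8 and 28.9 in SD knockouts. After HFD feeding the controls were at 236, 357, 303 and 345 CPM and the knockouts at 28.6 and 27.8. Every knockout library lay between 27.8 and 30.8 CPM, whatever the diet, and the log2 changes were -3.39 and -3.46. The difference was -0.07 (95% interval -0.63 to 0.50), with the sign turned without SD control 3 (0.13) and without HFD control 2 (0.02). Scarb1, the HDL receptor, stood at 62.9, 58.7 and 57.4 CPM in SD controls and 34.3, 30.02 and 32 in SD knockouts. It stood at 62.8, 62.2, 63.4 and 65.5 CPM in HFD controls and 36.4 and 35.4 in HFD knockouts. Both contrasts were without overlap, and the difference of 0.07 had an interval of -0.24 to 0.37. Abcb4, which moves phosphatidylcholine into bile, had log2 changes of -1.004 on SD and -0.96 on HFD, a difference of 0.05 (-0.28 to 0.37, and -0.04 without HFD knockout 1). Gnmt, the glycine methyltransferase that consumes S-adenosylmethionine, changed by -1.27 and -1.48, a difference of -0.21 (-0.70 to 0.28). The difference was less tightly bounded for Oat, ornithine aminotransferase, which changed by -2.87 and -2.48, a difference of 0.39 (-0.38 to 1.17).

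The sterol exporter subunits fell on both diets, with the larger fitted change on SD. Abcg8 stood at 105, 165 and 149 CPM in SD controls and 50.7, 47.6 and 43.2 in SD knockouts. For HFD the values were 106, 114, 103 and 113 CPM in controls and 60.4 and 49.7 in knockouts. The groups did not overlap on either diet, and the log2 change was -1.57 (SE 0.15) on SD and -0.99 (SE 0.15) on HFD. Its partner Abcg5 changed by -1.82 (SE 0.22) and -1.06 (SE 0.21), and on HFD it no longer passed without HFD knockout 1 (-1.01) or HFD knockout 2 (-1.11). The differences of 0.58 and 0.76 did not pass in edgeR (adjusted p = 0.561 and 0.578).

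**Figure D2:**
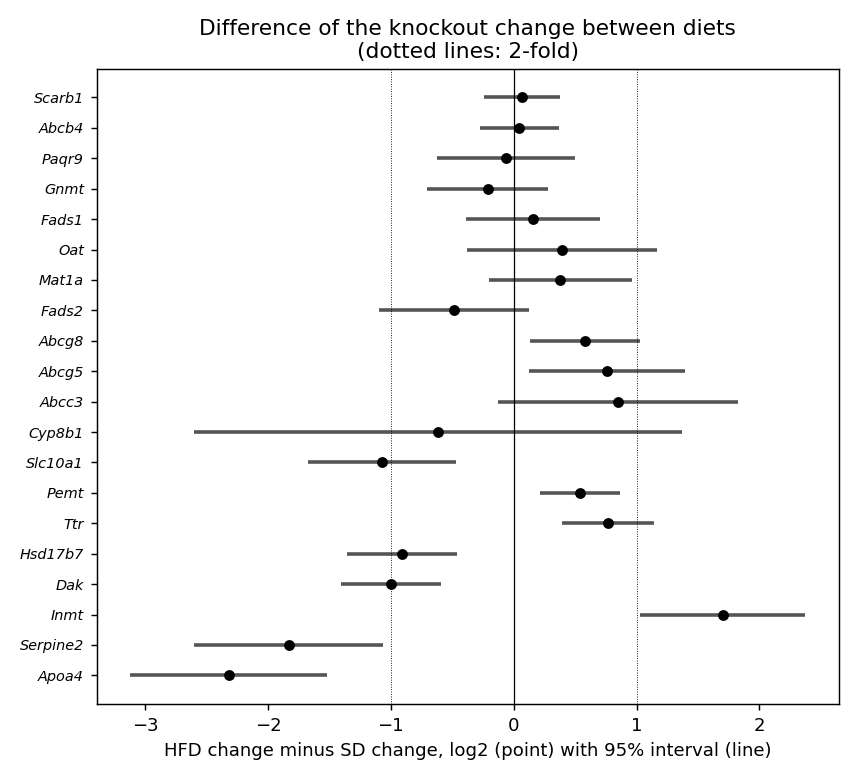
Points give the HFD change minus the SD change on the log2 scale for 20 genes and lines its 95% interval from edgeR, with dotted lines at 2-fold. Abcc3 and Mat1a are shown here and not described in the text. Scarb1 and Abcb4 have narrow intervals around 0, Cyp8b1 has one from -2.60 to 1.37, and among those that do not reach 0 are Apoa4, Serpine2 and Inmt, although no adjusted p passed.

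Some other settings on the same counts did call small sets of genes, while RLE normalization, thinned counts and limma-voom gave 0 calls. DESeq2 called 17 of 8986 genes to which it gave an adjusted p (0.189%), 10 with the higher and 7 with the lower change on HFD. Of these 17, 13 had fitted changes of opposite sign on the 2 diets and 4 had the larger change on SD. Over all genes tested, 60.9% had the same sign on both diets. On the linear CPM scale the difference of differences had the same sign as on the log2 scale for 17 of 17. The same held for 900 of the 911 genes at an unadjusted edgeR p under 0.05, so it does not set the 17 apart. Leaving low-count genes in the edgeR fit also gave 17 calls, and 10 were shared with DESeq2. Most of the genes described next are among the 20 with the smallest edgeR p at a group mean of at least 5 CPM or among DESeq2's calls. Slc10a1, Ctsc and Hal are in neither set, and all were picked after their values were seen. Their values are therefore descriptions of the interaction itself.

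Apoa4, an apolipoprotein of triglyceride-rich lipoproteins and HDL, had the smallest p. It stood at 26.2, 46.2 and 23.2 CPM in SD controls and 77, 76.9 and 106 in SD knockouts. Under HFD the controls reached 248, 127, 188 and 149.7 CPM and the knockouts 107 and 89.6. The knockouts lay above all controls on SD and below all controls on HFD, and the HFD controls were several times above the SD controls, so the 5 knockout libraries of both diets lay between them, at 76.9 to 107 CPM. The log2 change was 1.46 (SE 0.27) on SD, where it passed in edgeR (adjusted p = 0.00657), and -0.86 (SE 0.26) on HFD, where it did not (adjusted p = 0.0966). Without SD control 3 the SD change was 1.26 and no longer passed (adjusted p = 0.0539). The difference was -2.32 (95% interval -3.12 to -1.52), with an adjusted p of 0.202 in edgeR and 1.25e-05 in DESeq2, and it ranged from -2.67 to -2.11 with each library left out.

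Inmt, indolethylamine N-methyltransferase, had the reverse pattern. It stood at 201, 337 and 336 CPM in SD controls and 176, 158 and 103 in SD knockouts. On HFD it stood at 255, 330.2, 219 and 324 CPM in controls and 499 and 417 in knockouts. The controls of both diets covered one range, with the SD knockouts below it and the HFD knockouts above it. The log2 change was -1.001 on SD (edgeR adjusted p = 0.0179) and 0.70 on HFD, where it did not pass (adjusted p = 0.127). The SD change did not pass without SD control 2 (-0.89), SD control 3 (-0.88), SD knockout 2 (-1.06) or SD knockout 3 (-0.80). The difference was 1.70 (1.03 to 2.37, DESeq2 adjusted p = 0.00125). In edgeR its adjusted p was 0.291, and 0.0221 when SD control 1, the lowest SD control, was left out.

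Dak, the triokinase of fructose breakdown, followed Apoa4 in direction. It stood at 139, 151 and 121 CPM in SD controls and 172, 218 and 226 in SD knockouts. The HFD controls held 251, 228, 241 and 207 CPM and the HFD knockouts 193 and 155. The groups did not overlap on either diet. The log2 change was 0.58 on SD (edgeR adjusted p = 0.0210) and -0.42 on HFD, where it did not pass (adjusted p = 0.149). The SD call was not kept when control 3 (0.50), knockout 2 (0.54) or knockout 3 (0.51) of that diet was dropped. The difference was -0.998 (-1.41 to -0.59), with an adjusted p of 0.291 in edgeR and 0.00374 in DESeq2. Il1r1, the interleukin 1 receptor, and Slc25a30, a mitochondrial carrier, were higher in every SD knockout than in any SD control, with log2 changes of 1.65 and 1.91. On HFD their changes were -0.43 and -0.11, neither of which passed. The change of Il1r1 on SD did not pass without SD control 3 (1.39). DESeq2 did not call the difference of -2.08 for Il1r1 (adjusted p = 0.0977) and called that of -2.02 for Slc25a30 (adjusted p = 0.0402).

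Serpine2 rose on both diets, with the smaller fitted change on HFD. This gene encodes a serine protease inhibitor also called protease nexin 1. It stood at 12.5, 8.84 and 10.4 CPM in SD controls and 88, 77.7 and 80.8 in SD knockouts. In the HFD libraries the level was 19.1, 10.3, 9.04 and 10.1 CPM in controls, the highest of them being HFD control 1, and 22.6 and 30.8 in knockouts. The log2 change was 2.96 (SE 0.27) on SD and 1.12 (SE 0.23) on HFD, and on HFD it did not pass without HFD control 2 (1.06), HFD control 4 (1.05) or HFD knockout 2 (0.88). The difference was -1.83 (-2.60 to -1.06, DESeq2 adjusted p = 0.00374).

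Slc10a1, the sodium-dependent transporter that takes bile acids from blood, fell on both diets, with the larger fitted change on HFD. It stood at 812, 819.9 and 698 CPM in SD controls and 379, 352 and 353 in SD knockouts. After HFD feeding the controls were at 435, 780.0, 923 and 794 CPM, with HFD control 1 the lowest, and the knockouts at 166 and 159. Both contrasts were without overlap, at -1.10 (SE 0.20) and -2.17 (SE 0.23) on the log2 scale. The difference of -1.07 (-1.68 to -0.47) had an adjusted p of 0.374 in edgeR and 0.0778 in DESeq2. Without HFD control 1 it was -1.25 with an edgeR adjusted p of 0.0179.

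**Figure D3:**
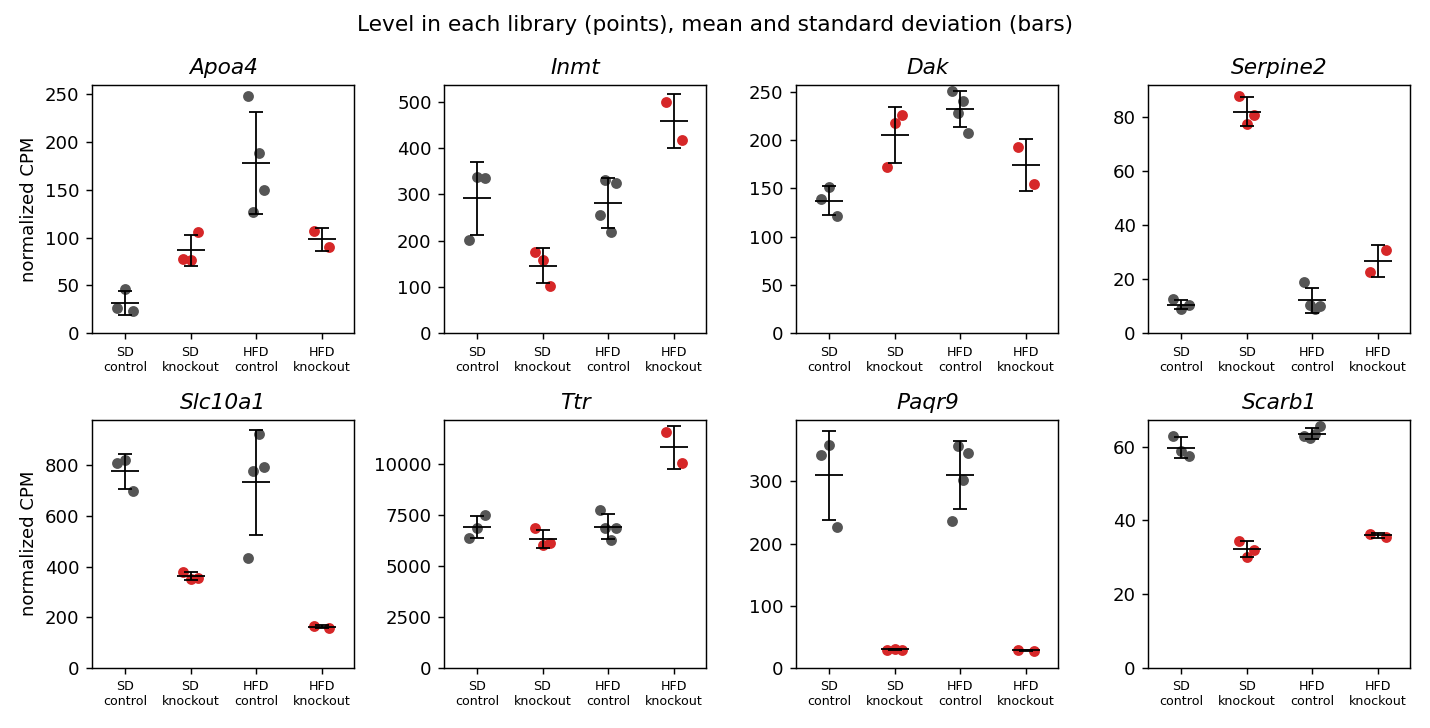
Points are the 12 libraries (grey for control, red for knockout), with normalized CPM on a linear vertical axis for 8 genes and bars for the mean and standard deviation of each group. Apoa4, Inmt and Dak have fitted changes of opposite sign on the 2 diets, Serpine2 and Slc10a1 have changes of one sign and different size, Ttr is highest in the HFD knockouts, and the knockouts of both diets lie below the controls for Paqr9 and Scarb1.

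A further group passed lower on SD and did not pass on HFD. Papss2, which makes the sulfate donor of sulfation reactions, stood at 563, 493 and 542 CPM in SD controls and 287, 250.2 and 278 in SD knockouts. For HFD the values were 609.8, 632, 455 and 476 CPM in controls and 499 and 476 in knockouts. The SD groups were far apart and the HFD groups overlapped, with log2 changes of -0.97 (SE 0.13) and -0.16 (SE 0.14). Apoc1, an apolipoprotein of triglyceride-rich particles, had log2 changes of -0.89 on SD and -0.26 on HFD, and DESeq2 called the difference of 0.63 (adjusted p = 0.0402). Ctsc, the lysosomal protease cathepsin C, had log2 changes of -1.71 on SD and -0.32 on HFD. Its difference of 1.39 (0.68 to 2.09) did not pass in edgeR (adjusted p = 0.329) or in DESeq2 (adjusted p = 0.05001). It passed in edgeR with no filter on low counts (adjusted p = 0.0185). It also passed without SD control 1, whose level was the lowest SD control value (1.67, adjusted p = 0.0221). Rnf125, a ubiquitin ligase gene, had log2 changes of -1.48 and -0.38, and Ddah1, which degrades asymmetric dimethylarginine, had -0.95 and 0.23. Ddah1 was called by DESeq2 (adjusted p = 0.0181), while Rnf125 was not (adjusted p = 0.0553).

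Other genes passed on HFD and not on SD. Ttr, transthyretin, the carrier of thyroxine and of retinol-binding protein, stood at 6378, 6850.2 and 7471 CPM in SD controls and 6842, 6019.5 and 6133 in SD knockouts. Under HFD the controls reached 7731, 6835, 6263 and 6840.4 CPM and the knockouts 11559 and 10064. The HFD knockouts lay above all other libraries, with a log2 change of 0.64 (SE 0.13), against -0.12 (SE 0.12) on SD. The HFD change was 0.55 and did not pass without HFD knockout 1, and DESeq2 called the difference of 0.77 (adjusted p = 0.00374). The higher share of counts on albumin in the HFD knockouts moved with this, and its part in the Ttr difference was not tested. Bmp1, the procollagen C-proteinase, stood at 33.9, 36.2, 41 and 41.3 CPM in HFD controls and 14.9 and 18.4 in HFD knockouts. On SD it stood at 23.4, 21.3 and 29 CPM in controls and 19.7, 24.4 and 23.3 in knockouts. It fell on HFD (-1.19, edgeR adjusted p = 0.000752) and overlapped on SD (-0.14). DESeq2 did not call the difference of -1.05 (adjusted p = 0.0514).

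Amdhd1, imidazolonepropionase, an enzyme of histidine breakdown, had the higher fitted change on HFD. It stood at 151, 192 and 171 CPM in SD controls and 157, 139 and 135 in SD knockouts. On HFD it stood at 126, 122, 115 and 113 CPM in controls and 167 and 179 in knockouts. The HFD knockouts lay above every HFD control. The log2 change was 0.54 on HFD (edgeR adjusted p = 0.0141) and -0.25 on SD, where it did not pass (adjusted p = 0.235). The HFD change was 0.60 or 0.49 without HFD knockout 1 or 2, fits that leave 1 HFD knockout. The difference was 0.79 (0.46 to 1.12), with an adjusted p of 0.291 in edgeR and 0.00374 in DESeq2. In the list of amino acid catabolism and urea cycle genes, which does not hold Amdhd1, 3 of 24 had an unadjusted p under 0.05, all higher on HFD (3.65% of all genes tested were), and the median difference was 0.15. Its smallest p was at Hal, histidine ammonia lyase, which had a difference of 0.61 (0.16 to 1.06), and neither of its changes passed (-0.30 on SD and 0.31 on HFD).

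Over the 31 pathway lists no member passed the interaction test, so each list is described by its counts at an unadjusted p under 0.05, which 7.58% of all genes reached, and by its median difference. Most lists lay close to the median of all genes, -0.01: 25 of the 31 medians were within 0.2 of 0. The list of pericentral hepatocyte genes had a median of 0.02, with 5 of 15 members passing on SD, the same 5 and Rhbg passing on HFD, and all of them lower (2.94% of all genes tested passed lower on SD and 1.66% on HFD). Oat, Slc1a2, Tbx3, Gulo and Rnf43 are the 5. Rhbg, an ammonium transporter, had 20 counts over the SD controls and 3 over the SD knockouts, a ratio of 6.70 (exact 95% interval 1.99 to 35.2), and 103 counts over the HFD controls and 0 over the HFD knockouts, at least 15.6-fold lower. Of 14 bile acid and sterol transporters, 7 passed lower on SD and 7 on HFD, against the same 2.94% and 1.66%, and 1 passed higher on each diet, with a median difference of 0.04. Acute phase proteins (median 0.03, 0 of 21 at an unadjusted p under 0.05) and respiratory chain subunits (0.11, 0 of 24) held no member at that level. The medians of collagen and matrix genes were 0.43 on SD and 0.21 on HFD, with 0 of 18 members at an unadjusted interaction p under 0.05.

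Genes of lipid metabolism were divided. Of 18 genes of lipogenesis and triglyceride synthesis, 3 had an unadjusted p under 0.05 and the median difference was 0.01. Srebf1, the transcription factor SREBP1 that drives fatty acid synthesis, stood at 78.1, 102 and 131 CPM in SD controls and 50.3, 65.2 and 63.4 in SD knockouts. The HFD controls held 98.7, 124, 122 and 112 CPM and the HFD knockouts 113 and 94.4. The SD groups were apart and the HFD groups overlapped. Its change on SD (-0.81, edgeR adjusted p = 0.0138) did not pass without SD control 3 (-0.60) or SD knockout 1 (-0.70), and the difference was 0.67 (0.16 to 1.17). Among 25 genes of phosphatidylcholine and methyl metabolism, 7 passed lower on SD (2.94% of all genes tested did), 5 passed lower on HFD (1.66%) and 3 had an unadjusted interaction p under 0.05. Pemt, which methylates phosphatidylethanolamine to phosphatidylcholine, had the smallest p of them. It stood at 84.4, 100.1 and 95.8 CPM in SD controls and 45.3, 42 and 44.9 in SD knockouts. In the HFD libraries the level was 102, 115, 114 and 123 CPM in controls and 78.8 and 77.1 in knockouts. The log2 change was -1.08 (SE 0.11) on SD and -0.54 (SE 0.11) on HFD, where it did not pass without HFD knockout 1 (-0.55) or HFD knockout 2 (-0.52), and the difference was 0.54 (0.22 to 0.87). Of 25 genes of fatty acid oxidation and ketogenesis, 4 had an unadjusted p under 0.05, all higher on HFD, and the median was 0.13. Acaa1b, a peroxisomal thiolase, was the one DESeq2 called (adjusted p = 0.0402): its change was -1.19 on SD and 0.19 on HFD. Acaa1b shares sequence with its paralog Acaa1a, which makes its counts uncertain, and its HFD knockouts were far apart, at 558 and 279 CPM.

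Glucose metabolism genes had a median difference of -0.05, with 2 of 16 at an unadjusted p under 0.05. The bile acid list, with a median of 0.10 and 4 of 15 members at an unadjusted p under 0.05, had its smallest p at Slc27a5, which couples bile acids to coenzyme A. Slc27a5 was the 1 higher member of the 4, and the 3 lower were Cyp7b1 (-1.57), Acox2 (-0.55) and Scp2 (-0.54). Slc27a5 stood at 349, 413 and 454 CPM in SD controls and 298, 270.2 and 249.7 in SD knockouts. After HFD feeding the controls were at 572, 684, 624 and 727 CPM and the knockouts at 649 and 631, overlapping there and not on SD. The difference was 0.55 (0.17 to 0.92).

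Cholesterol synthesis and uptake genes had a median difference of -0.12, with 4 of 24 at an unadjusted p under 0.05. Of these 4, 3 had the higher change on HFD, among them Sc5d (0.74) and Tm7sf2 (0.63), and 1 the lower. That 1 was Hsd17b7, a reductase of the sterol pathway, which had the smallest p and stood at 93.7, 86 and 59.5 CPM in SD controls and 81.3, 92.5 and 98.9 in SD knockouts. For HFD the values were 171, 161, 163 and 147 CPM in controls and 91 and 105 in knockouts. It overlapped on SD and was lower in both HFD knockouts. Its HFD change was -0.71 (edgeR adjusted p = 0.0163), and -0.61 or -0.81 without HFD knockout 1 or 2, fits that leave 1 HFD knockout. The difference was -0.91 (-1.35 to -0.46), with an adjusted p of 0.329 in edgeR and 0.0402 in DESeq2. Among 12 genes of polyunsaturated fatty acid desaturation and elongation, 1 had an unadjusted p under 0.05, the elongase gene Elovl2, at 0.04 on SD and -0.58 on HFD. The desaturase Fads2 changed by -0.98 and -1.47, and its partner Fads1 by -1.07 and -0.91. The intervals of their differences, -1.09 to 0.12 for Fads2 and -0.38 to 0.70 for Fads1, included 0. The SD call of Fads2 was lost on leaving out control 3 (-0.97), knockout 1 (-0.89) or knockout 2 (-0.96) of that diet, and the HFD call of Fads1 on leaving out HFD control 2 (-0.86) or HFD knockout 2 (-0.60). The Fads1 difference of 0.16 was -0.22 without HFD knockout 1, and on the linear scale its fall was the larger on HFD (-128 CPM for the difference of differences).

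**Figure D4:**
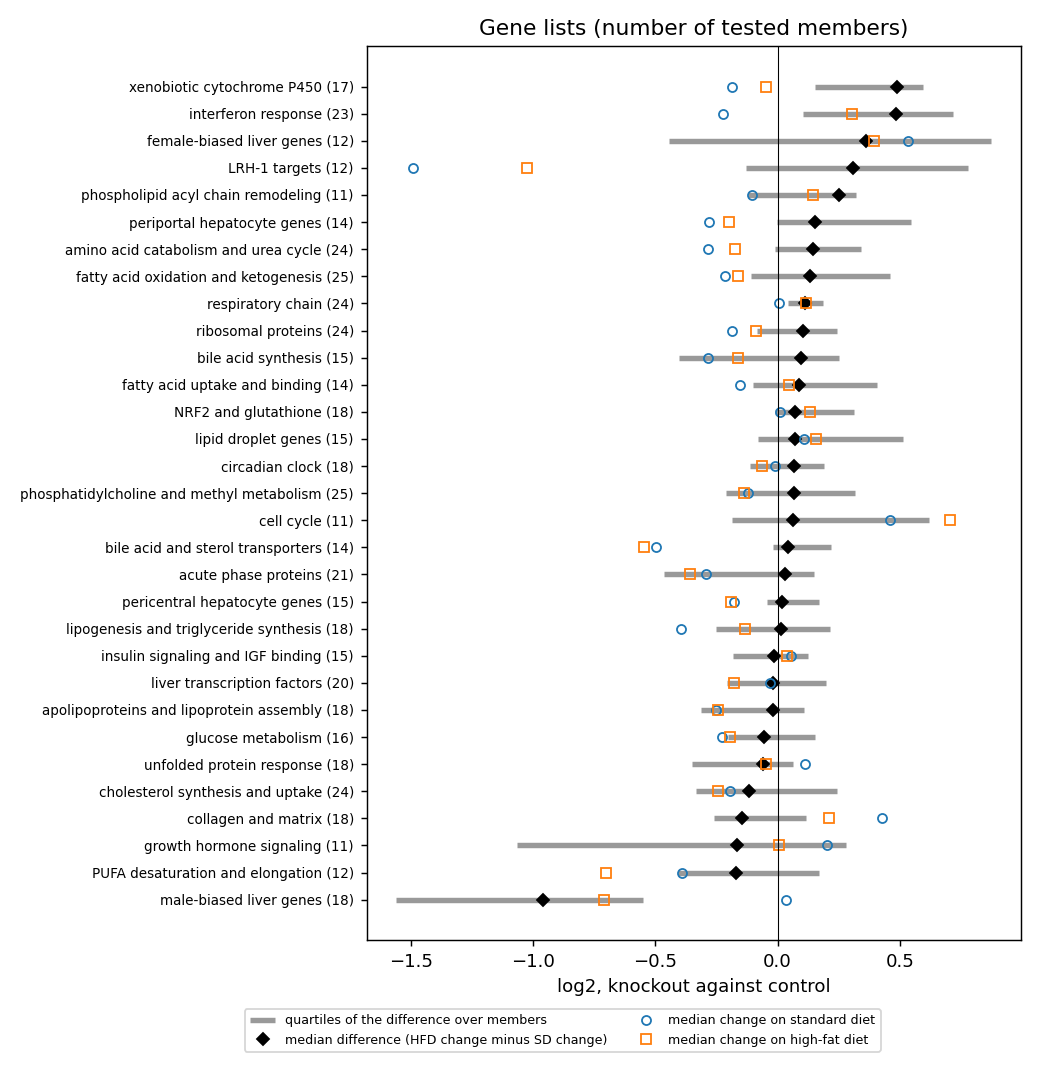
For each of 31 gene lists, with its number of tested members, the diamond is the median difference (HFD change minus SD change, log2), the grey bar its quartiles over members, and the open circle and square the median changes on SD and HFD. Male-biased liver genes lie lowest at -0.96, and interferon response genes and xenobiotic cytochrome P450 genes highest at 0.48 and 0.49.

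Male-biased liver genes, which the male pattern of growth hormone pulses keeps high in males, were the list with the lowest median. The median difference was -0.96, with median changes of 0.04 on SD and -0.71 on HFD. Of 18 tested members, 16 had the lower change on HFD, and 10 had an unadjusted p under 0.05, all of them lower, where 3.94% of all genes did. That count was 6 without SD control 3 and 3 without HFD knockout 1, and without HFD knockout 1 the median was -0.65. Within the diets Mup20, Ugt2b38 and Serpina12 passed higher and Mup3 lower on SD, and Mup3, Cyp4a12b, Hsd3b5, Slco1a1 and Susd4 passed lower on HFD. Of 12 tested female-biased liver genes, 7 had the higher and 5 the lower change on HFD. Among those 12, 1 had an unadjusted p under 0.05, in the lower direction. The median difference of the female-biased list was 0.36, with median changes of 0.53 on SD and 0.39 on HFD. Slco1a1, an organic anion transporter, stood at 794, 600.5 and 701 CPM in SD controls and 707, 712 and 669.8 in SD knockouts. Under HFD the controls reached 288, 369.6, 467 and 416 CPM and the knockouts 154 and 236. The SD groups overlapped and both HFD knockouts lay below all HFD controls. Its difference was -0.98 (-1.53 to -0.43, edgeR adjusted p = 0.374), and its HFD change of -0.98 was -0.70 and did not pass without HFD knockout 1. Serpina12 did not pass without SD control 1, 2 or 3 (3.09, 2.87 and 2.33) or SD knockout 2 or 3 (2.87 and 2.36). Hsd3b5, a steroid dehydrogenase of male liver, stood at 319, 366 and 325 CPM in SD controls and 136, 288 and 307 in SD knockouts. On HFD it stood at 27.7, 80.1, 225 and 106 CPM in controls and 8.62 and 23.1 in knockouts. HFD control levels were below SD control levels in each library, and they spanned several-fold. On the linear scale the mean fell from 337 to 243 CPM on SD and from 110 to 15.9 CPM on HFD. That is a difference of differences of -0.45 CPM, so the larger fall on HFD held as a ratio only. The Hsd3b5 groups did not overlap on either diet. Its HFD change was -2.76 and did not pass without HFD control 4 (-2.77), HFD knockout 1 (-2.23) or HFD knockout 2 (-3.66), and Mup3 did not pass on SD without SD knockout 2 (-0.996). The oxysterol 7-alpha-hydroxylase Cyp7b1 had log2 changes of 0.58 (SE 0.39) on SD and -0.99 (SE 0.43) on HFD, which ranged from 0.29 to 0.90 and from -1.78 to -0.49 with each library left out.

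Major urinary protein genes, which encode pheromone carriers, made up 5 of those 18 members, and their near-identical sequences make the count of each single gene uncertain. Mup7 stood at 2038, 956 and 1050.2 CPM in SD controls and 3380.1, 2440.4 and 4736 in SD knockouts. The HFD controls held 949, 1225, 3133 and 2793 CPM and the HFD knockouts 98.9 and 1399. The ratio between the HFD knockouts was larger than within any other group, and the difference of -2.82 ranged from -5.74 to -1.91 with each library left out. Mup21, whose replicates were closer, stood at 291 and 269 CPM in the HFD knockouts and 459, 328, 490.0 and 274 in the HFD controls, which overlapped. On SD its mean was 315 CPM in controls and 437 in knockouts, without overlap. Its log2 changes were 0.47 on SD and -0.47 on HFD, neither of which passed (edgeR adjusted p = 0.159 and 0.243). The difference was -0.94 (-1.49 to -0.40). The 11 tested genes of growth hormone signaling had a median difference of -0.16, and 1 of them, the repressor gene Bcl6, had an unadjusted p under 0.05. Bcl6 stood at 289, 44.6 and 199 CPM in SD controls, 46, 80.1 and 73.8 in SD knockouts, 147, 44.9, 48.2 and 28.3 in HFD controls and 164 and 37.6 in HFD knockouts. Its libraries varied several-fold within 3 of the 4 groups.

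Interferon response genes were the list with the most members at an unadjusted p under 0.05 in the higher direction. Of 23 tested, 18 had the higher change on HFD and 9 had an unadjusted p under 0.05, all of them higher, where 3.65% of all genes did. The median difference was 0.48, with median changes of -0.22 on SD and 0.30 on HFD. The count of 9 was 4 without SD control 2, 5 without SD knockout 3, 14 without HFD control 1 and 4 without HFD knockout 1. On SD 0 of the 23 passed, and on HFD 1 did, the protease gene Usp18, which did not pass in 10 of 12 fits with 1 library left out. Usp18, which removes the ubiquitin-like ISG15, stood at 15.2, 8.07, 8.58 and 9.75 CPM in HFD controls and 23.6 and 17.2 in HFD knockouts. On SD it stood at 10.9, 13.7 and 10.7 CPM in controls and 9.999, 8.81 and 13.2 in knockouts. HFD control 1 was the highest HFD control, and both HFD knockouts lay above it. B2m, the light chain of MHC class I, stood at 7006, 7944 and 7353 CPM in SD controls and 5993, 5476 and 5881 in SD knockouts. In the HFD libraries the level was 4268, 3928, 3668 and 3711 CPM in controls and 4128 and 4104 in knockouts. Its SD knockouts lay below all SD controls and its HFD groups overlapped, and the difference was 0.44 (0.11 to 0.78, edgeR adjusted p = 0.558).

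**Figure D5:**
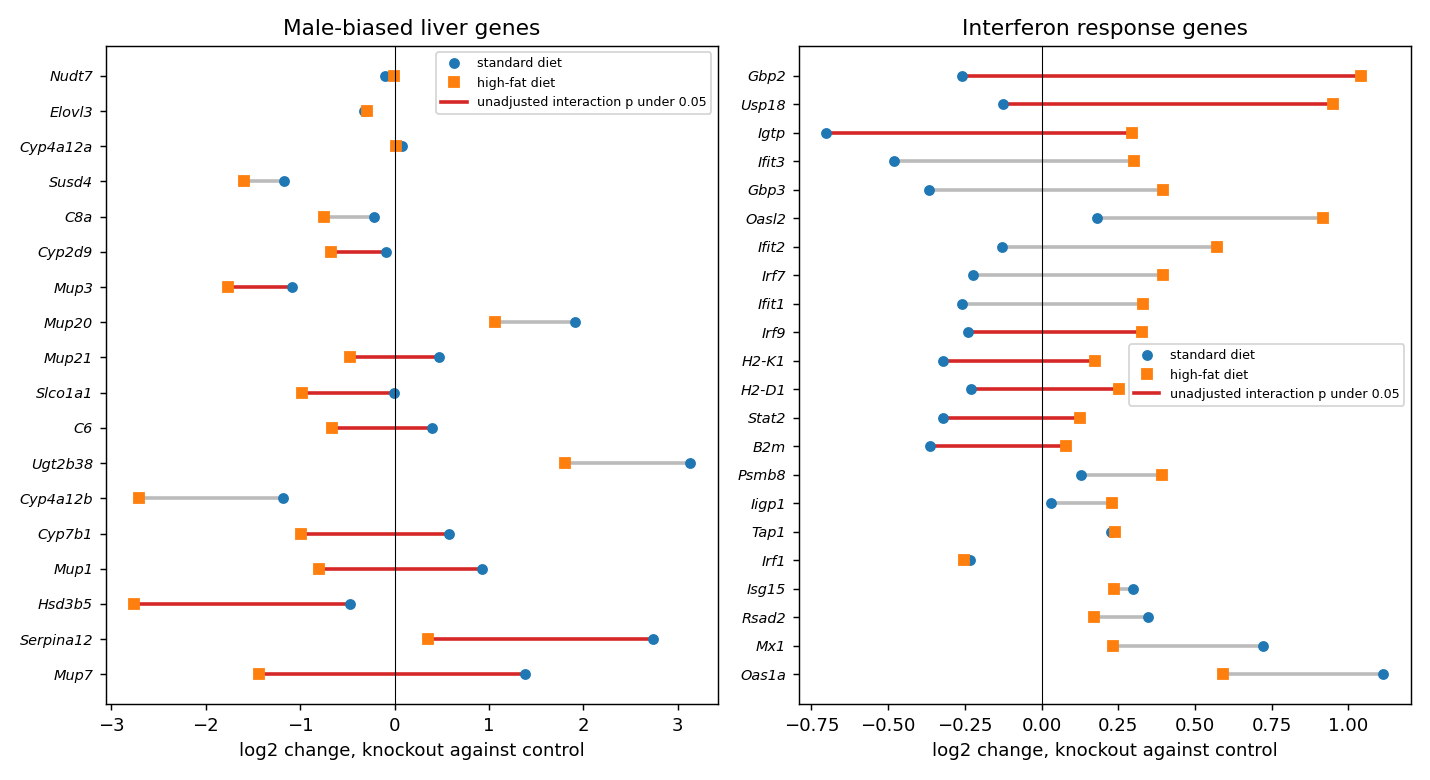
Each line joins the log2 knockout change of 1 gene on SD (circle) to that on HFD (square), in red where the unadjusted interaction p is under 0.05, for 18 male-biased liver genes (left) and 22 of the 23 interferon response genes (right). The 10 red lines on the left run to lower values on HFD and the 8 on the right to higher values, and none passed after adjustment over all genes.

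Xenobiotic cytochrome P450 genes had the higher change on HFD in 17 of 17 tested members, with a median of 0.49, but 2 of them had an unadjusted p under 0.05. Cyp2c55, a member of the Cyp2c family, rose on both diets. It stood at 19.1, 24.9 and 20.4 CPM in SD controls and 109, 74.8 and 74.5 in SD knockouts. After HFD feeding the controls were at 8.26, 5.59, 4.69 and 4.03 CPM and the knockouts at 86.7 and 38.4. Both contrasts were without overlap, with log2 changes of 2.01 and 3.43, and the difference of 1.43 was 0.73 to 1.91 with each library left out. On the linear scale the sign was the other, since the mean rose from 21.5 to 86 CPM on SD and from 5.64 to 62.5 CPM on HFD, a difference of differences of -7.61 CPM. Cyp3a11, a major drug-metabolizing enzyme of mouse liver with near-identical family members, had log2 changes of -0.19 (SE 0.39) on SD and 1.30 (SE 0.39) on HFD, where it ranged from 0.69 to 1.73 with each library left out. Nr1i3 encodes CAR, a nuclear receptor that drives such genes, and stood at 101, 93.6 and 111 CPM in SD controls and 76.3, 61.2 and 43.2 in SD knockouts. For HFD the values were 116, 139, 108 and 152 CPM in controls and 154 and 107 in knockouts. The groups were apart on SD and overlapped on HFD, and the difference was 0.78 (0.20 to 1.36).

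Markers of other liver cell types were measured beside these results. The summed level of 12 stellate cell and fibroblast markers was 423 to 517 CPM in SD controls and 564 to 653 in SD knockouts. On HFD it was 374 to 536 CPM in controls and 535 to 611 in knockouts, so the knockouts were higher without overlap on SD and met the controls on HFD. The 14 Kupffer cell and macrophage markers summed to 287 to 446, 328 to 426, 241 to 600 and 414 to 431 CPM in the same order of groups. The 11 sinusoidal endothelial markers overlapped on SD (322 to 424 in controls and 366 to 424 in knockouts) and were higher in the HFD knockouts (362 to 365) than in the HFD controls (284 to 340). For 7 B and plasma cell markers the HFD knockouts summed to 65.4 and 123 CPM and the HFD controls to 36.6 to 72.7, with 11.3 to 36.2 in the SD controls and 13.9 to 43.6 in the SD knockouts. The 9 T and NK cell markers summed to 5.59 to 15.3 CPM in HFD controls and 12.9 and 13.7 in HFD knockouts. All 10 hepatocyte markers, which include Alb and Ttr, were detected in each group. Their sum overlapped on SD (153901 to 186870 CPM in controls and 148626 to 200273 in knockouts) and was higher in the HFD knockouts (155758 to 200988) than in the HFD controls (141401 to 143899). Alb weighs heavily in this sum, at 10.02% and 13.7% of HFD knockout counts and 7.58% to 8.45% of HFD control counts. The median change of the 10 markers was -0.09 on SD and -0.15 on HFD, where 1 passed higher, so most did not rise with the sum. Cholangiocyte markers, of which 1 or 2 of 8 were at 0 throughout a group, summed to 51.4 to 53.9 CPM in SD controls and 65.3 to 197 in SD knockouts, and overlapped on HFD (27.6 to 105.6 and 88.6 to 100.5). The 3 that were tested had the lower change on HFD, with a median difference of -0.75 and 0 at an unadjusted p under 0.05. Adipocyte markers, of which 3 or 4 of 7 were at 0 throughout a group, summed to 1839 to 2761 CPM in SD controls and 698 to 1143 in SD knockouts, and overlapped on HFD (1566 to 3243 and 1450 to 2509). Car3, a carbonic anhydrase gene that hepatocytes also express, had a mean of 2277 CPM in SD controls and 881 in SD knockouts within that sum, and the defining adipocyte marker Adipoq had too few counts to be tested. Of the 7 neutrophil markers 1 to 3 were at 0 throughout a group, and their sum did not exceed 5.20 CPM in any library. Pancreatic acinar markers were at 0 for 10 or 11 of 13, and erythroid markers for 6 to 8 of 9. The part of these cell types in the differences given above was not tested.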

How the data were processed

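Libraries were made with a Nugen Ovation kit, per the labels' protocols. The submitters' processing notes name TopHat2 2.1.0, HTSeq, DESeq2 1.14.1 and build mm9. For each of 12 libraries the authors deposited raw counts of reads per gene, not normalized. No source used here states strandedness or how multiply mapped reads were counted, so overlapping genes and near-identical copies are uncertain.

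Testing used R 4.3.3 and the two-sided quasi-likelihood test of edgeR 4.0.16: TMM normalization, filterByExpr with a minimum count of 10, 4 group means over all 12 libraries, no replicate block, and Benjamini-Hochberg adjustment over all genes tested with a threshold of 0.05. Standard errors were derived from the test statistic. CPM use normalized library sizes. For a group at 0 the limit was 3 counts over the group. The procedure was tested on simulated data. Intervals on counts cover counting error only.

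The other settings tried were no filter on low counts, RLE normalization, DESeq2 1.42.0, thinning to the smallest depth, limma 3.58.1 (voom with quality weights), a replicate block, each diet alone and each library left out. Named genes are Nr5a2 and the tested member of each list with the smallest interaction p, since no gene passed. Further genes were added, and those described were chosen, after their values were seen. Some genes that the rule names are not reported here. Members and lists were chosen with earlier results of these data known. Older gene symbols were matched to promoters through RefSeq synonyms.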

Additional observations from a re-analysis of the deposited data

Results flagged for a closer look

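Among 82 named genes, 3 had 1 HFD control far from the other 3, and in each it was HFD control 1, the library that also stood apart on the second principal component. Bcl6 stood at 147 CPM in that library and at no more than 48.2 in the other HFD controls. Rhbg stood at 4.45 CPM against a next value of 2.36. Serpine2 stood at 19.1 CPM against 10.3. Chance flags about 1 in 20 groups.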

How the results depend on the processing

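The interaction gave 0 calls in edgeR (911 genes at an unadjusted p under 0.05), and also 0 with RLE normalization, with thinned counts and with limma-voom. It gave 17 calls with DESeq2, 17 with no filter on low counts, and 0 to 4 with 1 library left out: Ctsc, Inmt, Slc8a1 and Zfp9 without SD control 1, Rpl15 without SD knockout 1, and Slc10a1 without HFD control 1. Nothing in the labels ties replicate numbers across groups. Same-numbered deviations correlated at 0.05, 0.04 and -0.01 on SD and at 0.12 and 0.01 on HFD. Differently numbered ones ranged from -0.06 to 0.02 on SD and from -0.13 to 0.13 on HFD. With so few libraries in a group, whose deviations sum to 0, these values cannot decide whether the numbers pair the samples. With the replicate number as a block within diet, 4 genes passed (Apoa4, Fkbp5, Hamp2 and Il1r1), and the differences of Abcb4 (-0.0071) and Paqr9 (0.0016) changed sign. Genes called on both diets in opposite directions numbered 0, against 1 with DESeq2 (Apoa4) and 2 with no filter (Apoa4 and Inmt). HFD calls were 518 with no filter, 127 with each diet fitted alone and 85 to 602 with 1 library left out. SD calls were 811 with limma-voom and 220 to 655 with 1 library left out, and calls on both diets 259 with no filter and 63 to 278 with 1 library left out. With 1 library left out the sign also turned for 5 genes, whose log2 differences ranged from -0.27 to 0.0213 for Nr5a2, from -1.81 to 0.50 for Cyp8b1, from -0.0383 to 0.14 for Abcb4, from -0.17 to 0.13 for Paqr9 and from -0.22 to 0.47 for Fads1. The cause of these changes was not tested. With 0 calls in edgeR, the pattern of called genes has no value of its own. Without 1 HFD knockout a lone library remains, and its spread is assumed to equal that of the other groups. Depth on SD, at most 3404570 counts a library, limits what can be resolved for low-count genes.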
